A study of Caenorhabditis elegans with 12 samples.

Results

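The 6 annular furrow collagens of *C. elegans*, *dpy-2*, *dpy-3*, *dpy-7*, *dpy-8*, *dpy-9* and *dpy-10*, were taken by name from the expression values of 46761 genes, and all 6 were among them. RNA of whole young adult hermaphrodites was sequenced, with 3 libraries for each of 4 genotypes: *lin-29(n836)* mutants, *mab-10(tm2497)* mutants, *ddx-23(n5705)* mutants and the wild-type. All 4 strains carry *maIs105*, a *col-19::gfp* reporter, so the wild-type is the reporter strain and not the plain Bristol strain. LIN-29 is a zinc-finger transcription factor at the end of the heterochronic pathway, MAB-10 is its NAB co-factor, and DDX-23 is a spliceosomal helicase of the DEAD-box family. The *n5705* allele holds missense changes and is a partial loss of function, and each mutant is 1 strain. The comparisons ask how the level of each furrow collagen in adults differs when 1 of these regulators is impaired.

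The cuticle of *C. elegans* is a collagen matrix that the epidermis makes anew before each molt. Its surface is ringed by annular furrows, and the 6 furrow collagens depend on one another to form them. In the larval molting cycles most of them are made early, ahead of many other cuticle collagens, and wild-type adults no longer molt. Loss of any of the 6 gives short, fat (Dpy) animals and switches on osmotic, antimicrobial and detoxification genes in the epidermis. The 6 genes lie on 3 chromosomes of the WBcel235 assembly. *dpy-10* (chromosome II, 6710149 to 6712227, minus strand, 5 exons) and *dpy-2* (chromosome II, 6714292 to 6715971, plus strand, 5 exons) are neighbours that point away from each other, with 2064 bases between them. On the minus strand of chromosome X are *dpy-3* (2144605 to 2145647, 2 exons), *dpy-8* (5148804 to 5150476, 4 exons) and *dpy-7* (7536467 to 7537792, 2 exons). *dpy-9* is on the minus strand of chromosome IV (257403 to 259204, 4 exons).

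Levels are given as log2(FPKM + 1), the deposited scale, or as FPKM, the fragments of a gene scaled to its transcript length and to the size of the library, which allows levels of different genes to be compared. The read depth of the libraries is not in these values. FPKM summed to between 1038344 and 1130220 per library. The limma test was run on the 14199 genes that reached an FPKM of 1 in 3 or more libraries. All 6 members passed that filter, but *dpy-8* passed through its 3 *lin-29* libraries alone, so its difference in those mutants was built into the filter. With no such filter, the call on each of the 6 in *lin-29* mutants stayed the same. *dpy-9* reached an FPKM of 1 in 4 libraries outside the *lin-29* mutants, and the other members did so in 6 to 9. "Higher" and "lower" below mean an adjusted p (Benjamini-Hochberg, over the 14199 genes of a comparison) under 0.05, unless a level is meant. The 3 comparisons with the wild-type share its 3 libraries. The labels number the libraries from 3233 to 3253, and the 5 libraries numbered 3248 and above (wild-type replicate 3 and replicates 2 and 3 of *lin-29* and *mab-10*) are called later here, a split chosen after values had been seen. Wild-type replicate 3 stood far above the other wild-type libraries in 4 of the 6 members, so results that rest on it are given with and without it.

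In *lin-29* mutants all 6 furrow collagens were higher than in the wild-type, by 5.08-fold to 59.6-fold in mean FPKM (12.1-fold to 52.7-fold without wild-type replicate 3). They reached much the same level there, whereas the wild-type levels differed between members. The mean FPKM in *lin-29* mutants lay between 30.9 (*dpy-9*) and 43.1 (*dpy-7*), a ratio of 1.39, against a ratio of 13.7 between the highest and lowest wild-type means (*dpy-10*, 7.82, and *dpy-8*, 0.57). The wild-type ratio rested on replicate 3 and was 5.10 without it (*dpy-10*, 3.29, and *dpy-8*, 0.645). In whole-animal RNA, fewer cells of a type and less RNA per cell cannot be told apart, and the same holds for more cells and more RNA. Of all tested genes, 16.3% were higher in *lin-29* mutants by the same test, and the median difference was 3.14 over the 6 members and 0.19 over all tested genes. Every member was also over 1 on the log2 scale.

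**Figure D1:**
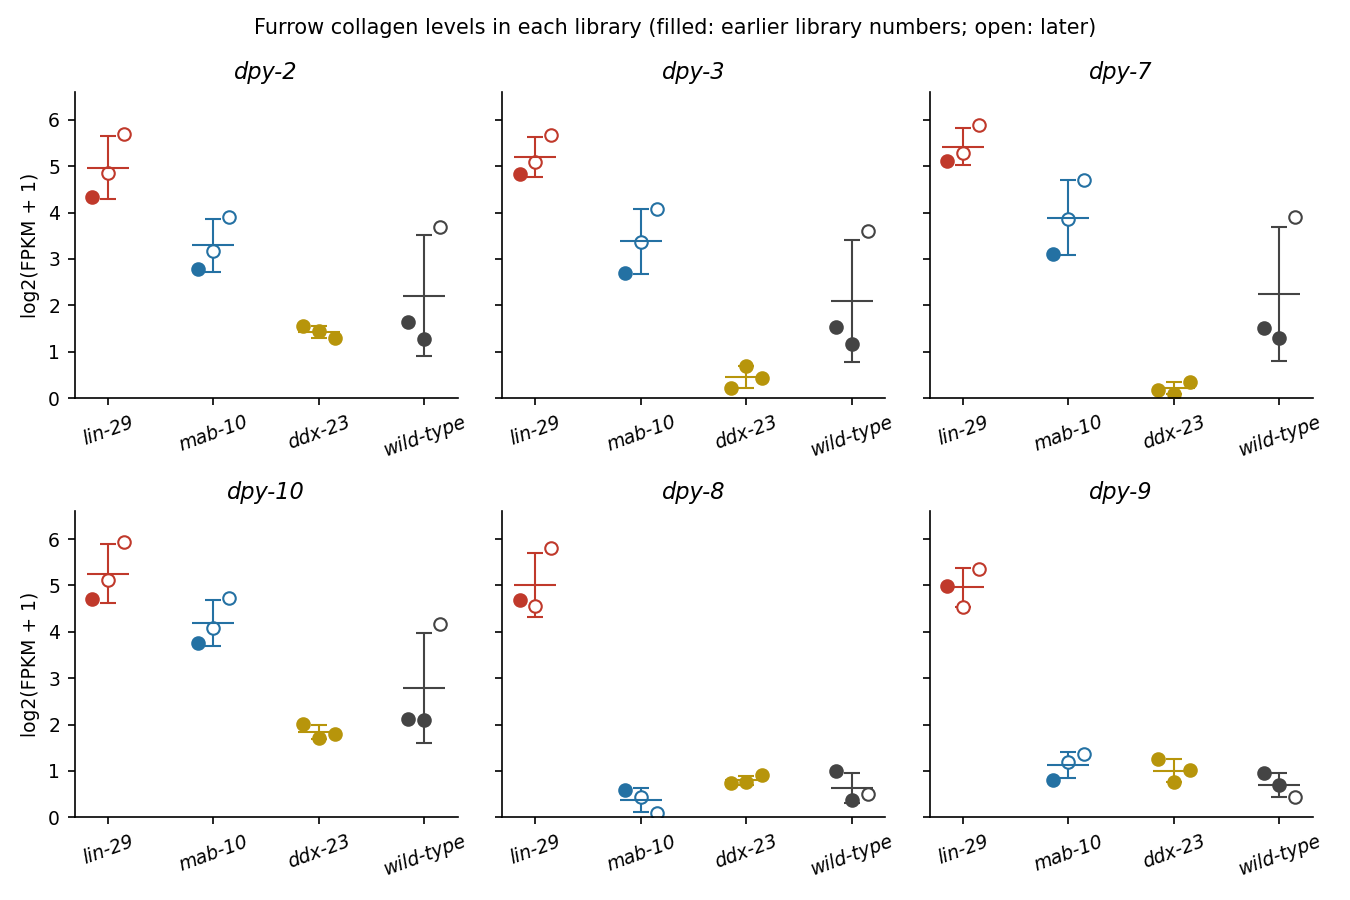
Level of each furrow collagen, as log2(FPKM + 1), in the 3 libraries of each genotype; horizontal marks are means, bars are SD, filled points are libraries with earlier numbers and open points those with later numbers. All *lin-29* libraries sit above all wild-type libraries in each panel, and the open wild-type point is far above the 2 filled ones for *dpy-2*, *dpy-3*, *dpy-7* and *dpy-10* but not for *dpy-8* and *dpy-9*.

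The difference was widest for *dpy-8* and *dpy-9*, whose products are needed for the furrows like those of the other members. *dpy-8* stood at 4.68, 4.55 and 5.80 on the log2(FPKM + 1) scale in *lin-29* mutants and at 0.99, 0.38 and 0.51 in the wild-type. It averaged 34 ± 18.1 FPKM in *lin-29* mutants and 0.57 ± 0.369 FPKM in the wild-type (SD, n = 3 each). The wild-type level was therefore close to nothing, and no *lin-29* library came near it. The log2 difference was 4.39 ± 0.32 (SE, limma adjusted p = 8.90e-06), for a gene that passed the filter through its *lin-29* libraries alone. *dpy-9* stood at 4.99, 4.53 and 5.36 in *lin-29* mutants and at 0.96, 0.69 and 0.44 in the wild-type, again with no *lin-29* library near any wild-type library. Its log2 difference was 4.26 ± 0.26 (SE, limma adjusted p = 2.85e-06), and its mean was 30.9 ± 8.99 FPKM in *lin-29* mutants and 0.64 ± 0.296 FPKM in the wild-type (SD, n = 3 each).

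The other members were higher in *lin-29* mutants by less, and their wild-type means were higher. *dpy-7*, whose promoter is in common use to drive expression in the epidermis, stood at 5.11, 5.28 and 5.88 in *lin-29* mutants and at 1.52, 1.3 and 3.91 in the wild-type, where replicate 3 was the high one. The difference was 3.18 ± 0.61 (SE, limma adjusted p = 0.00449). *dpy-3* stood at 4.84, 5.09 and 5.68 in *lin-29* mutants and at 1.54, 1.16 and 3.60 in the wild-type. It differed by 3.10 ± 0.56 (SE, limma adjusted p = 0.00315). *dpy-2* and *dpy-10* are the neighbouring pair. *dpy-2* stood at 4.35, 4.86 and 5.70 in *lin-29* mutants and at 1.65, 1.28 and 3.69 in the wild-type, a difference of 2.76 ± 0.57 (SE, limma adjusted p = 0.00636). *dpy-10*, in which the *cn64* change serves as a co-conversion marker in genome editing, stood at 4.70, 5.12 and 5.94 in *lin-29* mutants and at 2.11, 2.09 and 4.16 in the wild-type. It had the smallest difference of the 6, 2.47 ± 0.52 (SE, limma adjusted p = 0.00709). For each of the 6, the lowest *lin-29* library was above the highest wild-type library, which held for 24.1% of all tested genes.

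Taking out wild-type replicate 3 kept all 6 higher and brought the differences closer together, between 3.15 (*dpy-10*) and 4.33 (*dpy-8*), beside 25.4% of all tested genes called. Among the later libraries alone, where the wild-type is that 1 library, 3 of the 6 were higher (*dpy-3*, *dpy-8* and *dpy-9*), beside 13.8% of all tested genes, and *dpy-2*, *dpy-7* and *dpy-10* differed by 1.59, 1.66 and 1.37 (limma adjusted p = 0.0689, 0.0512 and 0.0831).

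**Figure D2:**
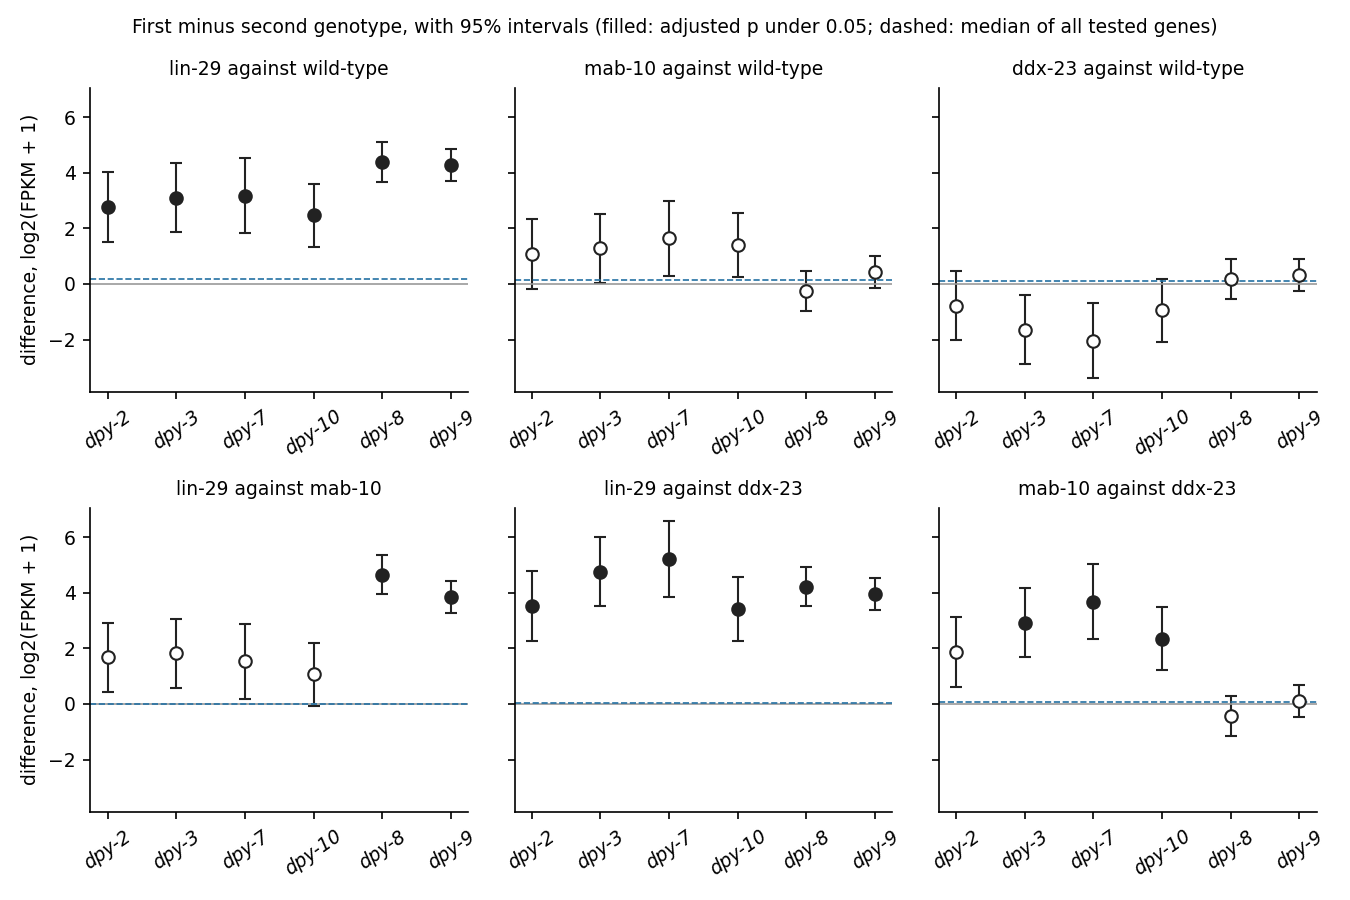
First minus second genotype for each furrow collagen on the log2(FPKM + 1) scale, with 95% confidence intervals from limma; filled points have an adjusted p under 0.05 and the dashed line is the median of all tested genes. All 6 points are filled in *lin-29* against the wild-type and against *ddx-23*, while *dpy-8* and *dpy-9* alone are filled in *lin-29* against *mab-10*.

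In *mab-10* mutants the 6 genes divided. *dpy-2*, *dpy-3*, *dpy-7* and *dpy-10* were at 9.34 to 18 FPKM on average, while *dpy-8* and *dpy-9* were at 0.307 and 1.21 FPKM. The wild-type means divided in the same way, at 4.75 to 7.82 FPKM and at 0.57 and 0.64 FPKM. Without wild-type replicate 3 they were 1.57 to 3.29 FPKM, and 0.645 and 0.78 FPKM. None of the 6 was higher than in the wild-type by the adjusted p, as 1.04% of all tested genes were, and *dpy-3*, *dpy-7* and *dpy-10* had unadjusted p-values of 0.0442, 0.0216 and 0.0205 by limma. No member kept its groups apart, which 14.8% of all tested genes did in this direction. The median difference was 1.19 over the members and 0.14 over all tested genes.

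*dpy-7* stood at 3.10, 3.86 and 4.71 in *mab-10* mutants, and its difference from the wild-type was 1.64 (95% interval 0.29 to 3.0, limma adjusted p = 0.179). *dpy-10* stood at 3.76, 4.08 and 4.74, with a difference of 1.40 (0.26 to 2.55, limma adjusted p = 0.175). All 3 *mab-10* libraries were above wild-type replicates 1 and 2 in both genes, and wild-type replicate 3 lay within their range. *dpy-3* stood at 2.69, 3.37 and 4.08 in *mab-10* mutants, 1.28 above the wild-type mean (0.04 to 2.53, limma adjusted p = 0.228). *dpy-2* stood at 2.78, 3.18 and 3.92, 1.09 above it (-0.17 to 2.34, limma adjusted p = 0.292). In both genes too, wild-type replicate 3 lay within the range of the *mab-10* libraries.

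*dpy-8* and *dpy-9* were at low levels in *mab-10* mutants, as they were in the wild-type. *dpy-8* stood at 0.58, 0.44 and 0.08, and its difference was -0.25 (-0.96 to 0.45, limma adjusted p = 0.669). *dpy-9* stood at 0.82, 1.20 and 1.36, with a difference of 0.43 (-0.15 to 1.0, limma adjusted p = 0.358). The intervals exclude a difference of the size seen for these genes in *lin-29* mutants.

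The call on the other members turned on wild-type replicate 3. Without it, *dpy-2*, *dpy-3*, *dpy-7* and *dpy-10* were all higher in *mab-10* mutants, by 1.83, 2.03, 2.48 and 2.09 (limma adjusted p = 0.0204, 0.0123, 0.00705 and 0.0088), beside 13.1% of all tested genes. *dpy-8* and *dpy-9* then differed by -0.31 and 0.30 (limma adjusted p = 0.575 and 0.478). That fit sets wild-type libraries with earlier numbers alone against *mab-10* libraries of which 2 of 3 are later. With the library number group as a term, 0 of the 6 passed, beside 5.48% of all tested genes, and *dpy-2*, *dpy-3*, *dpy-7* and *dpy-10* differed by 0.65, 0.86, 1.18 and 1.01 (limma adjusted p = 0.29, 0.179, 0.107 and 0.0975). Among later libraries alone they differed by -0.14, 0.13, 0.37 and 0.25, and 0 passed, beside 2.83% of all tested genes. Among earlier libraries alone, with 1 *mab-10* library, these 4 passed, beside 9.2% of all tested genes, with differences of 1.32, 1.34, 1.69 and 1.66 (limma adjusted p = 0.0224, 0.0339, 0.00849 and 0.0053).

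Set against *lin-29* mutants directly, *mab-10* mutants differed in *dpy-8* and *dpy-9*. *dpy-8* was higher in *lin-29* mutants than in *mab-10* mutants by 4.64 ± 0.32, and *dpy-9* by 3.83 ± 0.26 (SE, limma adjusted p = 1.05e-05 for both), and these were the 2 members called, beside 7.28% of all tested genes. In mean FPKM they were 111-fold and 25.6-fold higher in *lin-29* mutants. *dpy-8* passed the filter through its *lin-29* libraries alone, so its part of this result was built into the filter. *dpy-2*, *dpy-3*, *dpy-7* and *dpy-10* were above the *mab-10* mean by 1.67, 1.82, 1.53 and 1.06 (limma adjusted p = 0.0989, 0.0712, 0.161 and 0.251). Their 95% intervals were 0.42 to 2.93, 0.58 to 3.06, 0.18 to 2.88 and -0.08 to 2.21, so that of *dpy-10* alone included no difference. In 5 of the 6, all but *dpy-10*, no *lin-29* library was as low as any *mab-10* library, as for 15.4% of all tested genes. Without wild-type replicate 3, which enters this comparison only through the shared estimate of the spread, 5 members were called, beside 8.73% of all tested genes. With the library number group as a term all 6 were called, beside 13.4% of all tested genes, and *dpy-2*, *dpy-3*, *dpy-7* and *dpy-10* had limma adjusted p = 0.00633, 0.00422, 0.0182 and 0.0386.

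In *ddx-23* mutants none of the 6 was higher than in the wild-type, although 7.17% of all tested genes were. *dpy-2*, *dpy-3*, *dpy-7* and *dpy-10* each had their lowest mean level of the 4 genotypes there. *dpy-7* stood at 0.18, 0.10 and 0.36 in *ddx-23* mutants, against 1.52, 1.3 and 3.91 in the wild-type, with a difference of -2.04 (95% interval -3.39 to -0.68, limma adjusted p = 0.068). *dpy-3* stood at 0.23, 0.69 and 0.44 in *ddx-23* mutants, against 1.54, 1.16 and 3.60 in the wild-type, with a difference of -1.65 (-2.89 to -0.40, limma adjusted p = 0.104). Neither pair of groups overlapped, and *dpy-10*, at 2.01, 1.72 and 1.79 in *ddx-23* mutants, was also below all wild-type libraries. Such a gap was found for 9.35% of all tested genes. Lower calls by the adjusted p numbered 0 of the 6 members, beside 1.46% of all tested genes, and *dpy-3* and *dpy-7* had unadjusted limma p-values of 0.0142 and 0.00698. Both passed the threshold when the library number group was a term of the model, with differences of -1.22 and -1.57 (limma adjusted p = 0.0319 and 0.0164), beside 4.54% of all tested genes. Without wild-type replicate 3, *dpy-3* and *dpy-7* differed by -0.89 and -1.20 (limma adjusted p = 0.157 and 0.0764). With all wild-type libraries *dpy-10* differed by -0.95 (limma adjusted p = 0.307). Without replicate 3, *dpy-10* and *dpy-2* differed by -0.26 and -0.03 (limma adjusted p = 0.689 and 0.979), so the size of both differences rested on that library.

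*dpy-2* stood at 1.56, 1.44 and 1.3 in *ddx-23* mutants, within the wild-type range (difference -0.77, -2.03 to 0.48, limma adjusted p = 0.466). *dpy-8* stood at 0.73, 0.77 and 0.91 and *dpy-9* at 1.25, 0.76 and 1.02, and their differences from the wild-type were 0.18 and 0.31 (limma adjusted p = 0.807 and 0.533). The 6 genes therefore kept a different order in *ddx-23* mutants from that in the wild-type. By mean FPKM it ran *dpy-10* (2.59), *dpy-2*, *dpy-9*, *dpy-8*, *dpy-3* and *dpy-7* (0.16), while in the wild-type *dpy-7* (5.80) came second after *dpy-10* (7.82). Without wild-type replicate 3, *dpy-2* (1.78) came between *dpy-10* (3.29) and *dpy-7* (1.67). The SD over the 3 wild-type libraries, 7.17 FPKM for *dpy-7* and 7.85 FPKM for *dpy-10*, was as large as the mean or larger. The ranges of FPKM over the 3 libraries overlapped between neighbours in the wild-type order, except those of *dpy-3* and *dpy-9*, and between all neighbours in *lin-29* mutants. In *ddx-23* mutants the ranges of *dpy-9* and *dpy-8* overlapped, as did those of *dpy-3* and *dpy-7*, and those of other neighbours did not. In *mab-10* mutants the ranges of *dpy-2*, *dpy-9* and *dpy-8*, the lowest of the order, did not overlap.

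All 6 were higher in *lin-29* than in *ddx-23* mutants, by 3.42 (*dpy-10*) to 5.21 (*dpy-7*), beside 14.2% of all tested genes. For *dpy-8* this too was built into the filter. No groups overlapped here, as for 27.2% of all tested genes. *dpy-7* averaged 43.1 ± 13 FPKM in *lin-29* mutants and 0.16 ± 0.108 FPKM in *ddx-23* mutants (SD, n = 3 each), the widest gap between 2 genotypes for any member. The *ddx-23* level was close to nothing, so the size of this gap rests on an unknown number of reads.

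Between *mab-10* and *ddx-23* mutants, 3 members were higher in *mab-10* mutants, beside 3.19% of all tested genes. They were *dpy-7* (3.68 ± 0.61, SE), *dpy-3* (2.93 ± 0.56) and *dpy-10* (2.35 ± 0.52), with limma adjusted p = 0.00584, 0.012 and 0.0218. *dpy-2* was above the *ddx-23* mean by 1.86 ± 0.57 (SE, limma adjusted p = 0.0703). For these 4 genes every *mab-10* library was above every *ddx-23* library, as for 20.8% of all tested genes. *dpy-8* was the other way round, with every *mab-10* library below every *ddx-23* library, as for 16% of all tested genes, and a difference of -0.43 (limma adjusted p = 0.426). The count of 3 fell to 1 (*dpy-7*) without *mab-10* replicate 3 or without *ddx-23* replicate 1, beside 0.627% and 0.993% of all tested genes, and was 4 without wild-type replicate 3, beside 5.6%. Among earlier libraries alone, with 1 *mab-10* library, 4 passed, *dpy-2* among them (1.35, limma adjusted p = 0.0127), beside 6.32% of all tested genes. With the library number group as a term the count was 3, beside 3.85%, and the differences of *dpy-2* and *dpy-10* were 0.99 and 1.57 (limma adjusted p = 0.128 and 0.0204). *dpy-10* missed the threshold without *mab-10* replicate 2 or *ddx-23* replicate 2 or 3 as well (limma adjusted p = 0.0572, 0.0834 and 0.0652).

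The members formed 2 sets by their spread between libraries, a grouping made after their values had been seen. Over the 12 libraries Pearson's r was between 0.96 and 0.99 for the 6 pairs among *dpy-2*, *dpy-3*, *dpy-7* and *dpy-10*, was 0.98 for *dpy-8* with *dpy-9*, and was between 0.63 and 0.79 for the 8 pairs across. With each genotype's mean taken off, r was 0.94 to 0.99 among the first 4, 0.50 for *dpy-8* with *dpy-9*, and -0.03 to 0.14 across. These values describe 12 libraries that share genotypes and library numbers. *dpy-2* and *dpy-10*, the neighbours on chromosome II, had the highest of these second values, 0.99, but *dpy-3* and *dpy-7*, which lie far apart on X, had 0.98.

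In *dpy-2*, *dpy-3*, *dpy-7* and *dpy-10*, part of what varied within genotypes went with the library number. Summed over *dpy-2*, *dpy-3*, *dpy-7* and *dpy-10*, the later libraries held 132 and 220 FPKM in *lin-29* mutants, 46.8 and 80.9 in *mab-10* mutants and 54 in the wild-type. The earlier libraries held 106 FPKM in *lin-29* mutants, 31.4 in *mab-10* mutants, 5.27, 4.68 and 4.56 in *ddx-23* mutants and 9.22 and 7.38 in the wild-type. Each later library was above the earlier ones of its genotype. Summed over *dpy-8* and *dpy-9*, the wild-type libraries held 1.94, 0.91 and 0.78 FPKM, with the later one the lowest. The pair made up 25.1 to 34.4% of the summed FPKM of the 6 members in *lin-29* mutants and 22.9 to 29.5% in *ddx-23* mutants, but 1.97 to 3.85% in *mab-10* mutants and 1.42 to 17.4% in the wild-type.

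**Figure D3:**
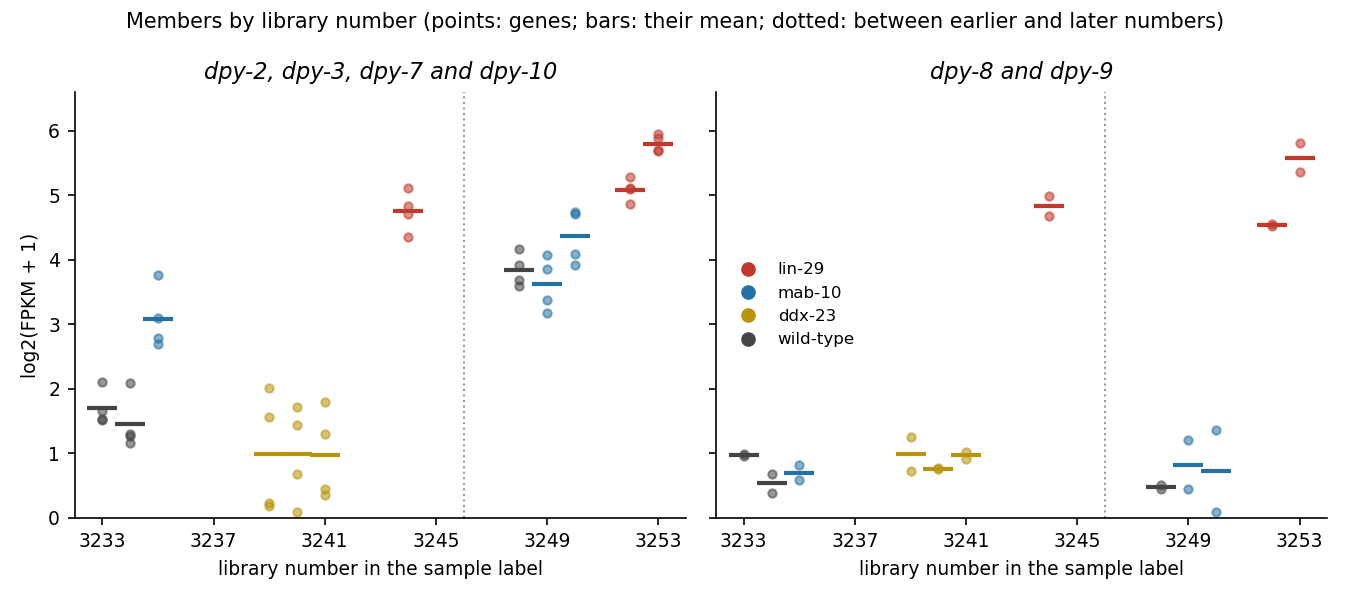
Level of the furrow collagens, as log2(FPKM + 1), against the library number in the sample label, for *dpy-2*, *dpy-3*, *dpy-7* and *dpy-10* (left) and *dpy-8* and *dpy-9* (right); points are genes, short bars their mean, colours the genotypes. On the left the later wild-type library is at the level of the *mab-10* libraries, and on the right it is at the level of the 2 earlier wild-type libraries.

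In a model with genotype and library number group as terms, *dpy-7* was higher in later than in earlier libraries by 1.39 ± 0.33, *dpy-2* by 1.31 ± 0.29, *dpy-3* by 1.28 ± 0.30 and *dpy-10* by 1.18 ± 0.27 (SE, limma adjusted p = 0.00969, 0.00721, 0.00855 and 0.0085). These are 4 of the 6 members, beside 25.2% of all tested genes. *dpy-8* and *dpy-9* differed by -0.00033 and 0.013. Tested one by one, the difference of *lin-29* mutants from the wild-type itself changed between later and earlier libraries in 1 of the 6 members, *dpy-7* (1.66 later, 3.70 earlier), beside 9.76% of all tested genes. The *ddx-23* libraries all have earlier numbers, so a difference between *ddx-23* mutants and later libraries of another genotype cannot be told apart from the library number. What the number stands for is not given in the sources used here, and its part in the results above was not tested beyond these fits.

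The 5 genes most like the 6 members over the 12 libraries were not collagens. By Pearson's r with the mean of the 6 centred members, the 5 highest were *ptr-4* (0.994), a Patched-related gene needed for molting, *zmp-2* (0.992), a zinc metalloprotease gene, *ptr-10* (0.989), another Patched-related gene, *mlt-8* (0.988), a molting gene, and *cuti-1* (0.984), a gene of epidermal integrity. The mean level of *ptr-4* was 4.71 (*lin-29*), 2.17 (*mab-10*), 0.34 (*ddx-23*) and 1.16 (wild-type) on the log2(FPKM + 1) scale, and so had the order of levels of *dpy-7*. None of the 50 most alike was a cuticle collagen, which is near the share of cuticle collagens among the genes ranked, 0.909%. Taken by set, the 3 most like *dpy-2*, *dpy-3*, *dpy-7* and *dpy-10* were *lpr-6*, *lpr-3* and *lpr-5* (r = 0.994, 0.994 and 0.992), which encode lipocalin-related proteins of the apical matrix. Those most like *dpy-8* and *dpy-9* were *cdh-7* (0.995), a cadherin gene, and the collagen *col-157* (0.995), and 6 of the 50 most like this pair were cuticle collagens. The mean level of *cdh-7* was 3.13 (*lin-29*), 0.09 (*mab-10*), 0.16 (*ddx-23*) and 0.09 (wild-type). A gene low outside *lin-29* mutants can pass the filter through those libraries alone and then has a high r with this pair. These values therefore restate the *lin-29* difference. The mean level of *col-157* was 7.80 (*lin-29*), 0.99 (*mab-10*), 1.47 (*ddx-23*) and 1.07 (wild-type).

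Beside the counts of this and the following lists, 16.3% (*lin-29*), 1.04% (*mab-10*) and 7.17% (*ddx-23*) of all tested genes were higher. In *ddx-23* mutants 1.46% were lower. Without wild-type replicate 3, 25.4% (*lin-29*) and 13.1% (*mab-10*) were higher, and the share in *ddx-23* mutants is not given here. Of 14 other collagens with body-shape mutants, 13 were tested, and *lin-29* mutants had 9 of them higher and 1 lower than the wild-type. *mab-10* mutants had 0 higher and 0 lower, and *ddx-23* mutants 4 higher and 0 lower. The median differences were 4.82 (*lin-29*), -0.62 (*mab-10*) and -0.15 (*ddx-23*). *dpy-5*, *dpy-4* and *dpy-13*, which give Dpy animals when lost but are not furrow collagens, were higher in *lin-29* mutants by 6.49, 6.25 and 6.23, and *rol-8* by 5.23 (limma adjusted p = 5.61e-05, 0.000134, 6.80e-05 and 0.000411). In *ddx-23* mutants, where 0 of the 6 furrow collagens were higher, *dpy-5*, *dpy-4* and *dpy-13* differed by 4.97, 4.90 and 4.54 (limma adjusted p = 0.000643, 0.00127 and 0.0011). *dpy-14*, *dpy-17* and *sqt-3* differed there by -2.59, -2.06 and -2.12 (limma adjusted p = 0.0818, 0.187 and 0.195). In *mab-10* mutants they differed by 1.84, 2.15 and 2.58 (limma adjusted p = 0.232, 0.208 and 0.168). Like *dpy-3* and *dpy-7*, they were highest among wild-type libraries in replicate 3 (7.11, 7.23 and 6.81). Without wild-type replicate 3, the counts of the 13 that were higher were 11 (*lin-29*), 3 (*mab-10*) and 3 (*ddx-23*). Of the 116 tested collagens with a *col* number, *lin-29* mutants had 66 higher and 18 lower, *mab-10* mutants 12 higher and 5 lower, and *ddx-23* mutants 51 higher and 0 lower. Leaving out wild-type replicate 3 gave 70 higher and 22 lower (*lin-29*), 25 and 20 (*mab-10*), and 54 and 2 (*ddx-23*). Among 3 adult collagens, *col-19* was lower in *lin-29* mutants, with a difference of -3.96 (limma adjusted p = 0.000297), and in *ddx-23* mutants *col-7* and *col-62* were higher, by 3.76 and 3.35 (limma adjusted p = 0.00395 and 0.000397). In *mab-10* mutants 0 of these 3 passed, and all 3 were lower once wild-type replicate 3 was left out. Of 4 collagens of the L4 stage, *ddx-23* mutants had 3 higher, and the other mutants had 0 higher and 0 lower.

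Genes that fold, cut and cross-link collagens were mostly higher in *lin-29* mutants, with 9 of 11 higher and 0 lower (median difference 1.39). They include *bli-5*, a protease inhibitor gene (2.73), *phy-2*, a prolyl 4-hydroxylase subunit gene (2.36), *mlt-7*, a peroxidase gene (2.03), and *dpy-18*, the partner of *phy-2* (1.75), with limma adjusted p = 0.000464, 0.0109, 0.000367 and 0.0139. In *mab-10* mutants 1 of the 11 was higher (*tsp-15*, 1.27, limma adjusted p = 0.0453) and *ddx-23* mutants had 5 higher. Leaving out wild-type replicate 3 made these counts 6 and 3. Of 19 genes of the molting cycle, *lin-29* mutants had 13 higher and 0 lower (median difference 1.61), and none passed in either direction in *mab-10* (median 0.95) or *ddx-23* mutants (median -0.27). *mlt-8*, *mlt-9*, *lpr-3* and *mlt-11* were higher in *lin-29* mutants by 4.01, 3.63, 3.16 and 2.76 (limma adjusted p = 0.000608, 0.00544, 0.00108 and 0.00149). *nhr-23*, the nuclear receptor gene that starts each molting cycle, differed by 0.14 in *lin-29* mutants (limma adjusted p = 0.343). Without wild-type replicate 3, 11 of the 19 were higher in *mab-10* mutants and 1 in *ddx-23* mutants.

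**Figure D4:**
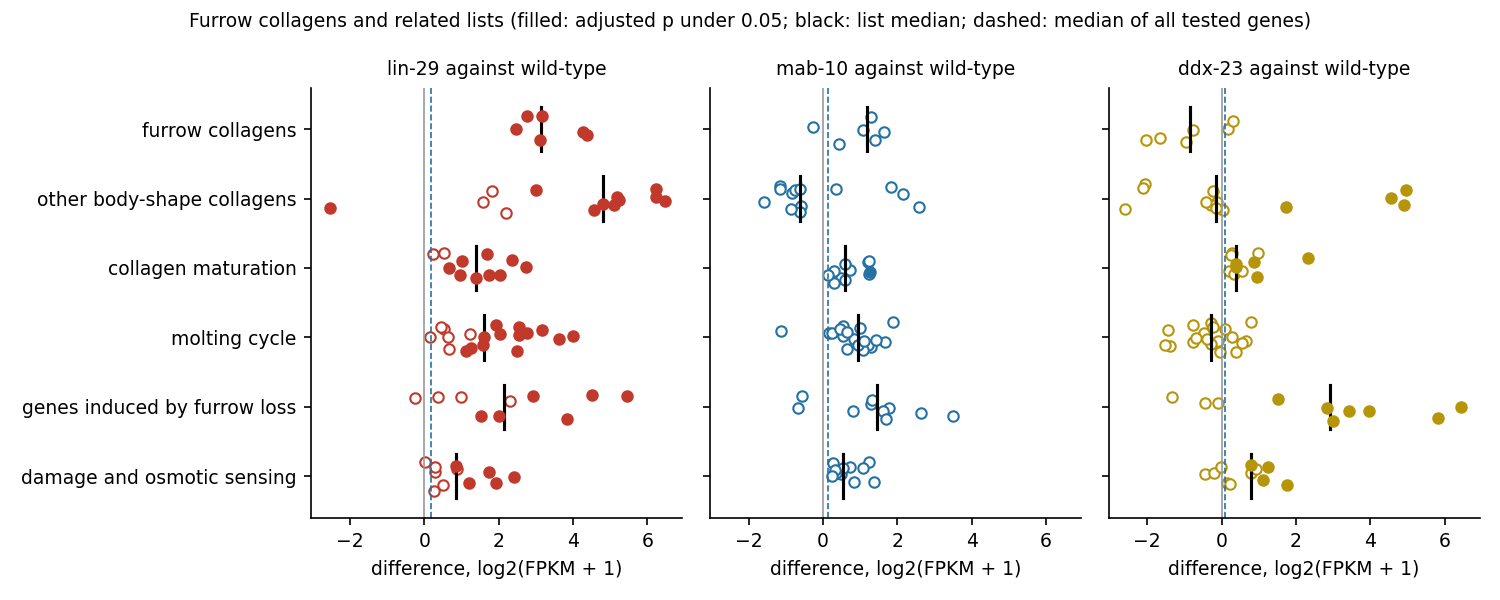
Difference from the wild-type on the log2(FPKM + 1) scale for each tested gene of 6 lists in the 3 mutants; filled points have an adjusted p under 0.05, black marks are list medians and the dashed line is the median of all tested genes. In *ddx-23* mutants the furrow collagens and the molting cycle list have no filled point. Of the 10 genes known to be induced by furrow loss 7 are filled there, all of them antimicrobial peptide genes.

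Of 10 genes that are induced when furrow collagens are lost, *lin-29* mutants had 6 higher, *mab-10* mutants 0 and *ddx-23* mutants 7, with none lower. The antimicrobial peptide genes *nlp-34*, *cnc-2*, *nlp-30* and *nlp-31* were higher in *lin-29* mutants by 5.46, 4.50, 3.85 and 2.93 (limma adjusted p = 0.00121, 0.00173, 0.000775 and 0.00075), and in *ddx-23* mutants by 6.45, 5.83, 2.83 and 3.98 (limma adjusted p = 0.000972, 0.000754, 0.00992 and 0.000272). *gpdh-1*, the osmotic glycerol gene, and *gst-4*, the detoxification gene, did not pass in any mutant, with differences of 1.0 and -0.24 (*lin-29*), -0.68 and -0.56 (*mab-10*) and -0.44 and -0.11 (*ddx-23*). *hmit-1.1*, the remaining gene outside the peptides, averaged 4.52 (*lin-29*), 3.50 (*mab-10*), 0.88 (*ddx-23*) and 2.22 (wild-type). Its wild-type libraries stood at 0.49, 0.70 and 5.46. The 7 genes higher in *ddx-23* mutants were thus all antimicrobial peptide genes. Of 11 genes that sense or relay cuticle damage and osmotic state, *lin-29* mutants had 5 higher, *mab-10* mutants 0 and *ddx-23* mutants 4, led in *lin-29* mutants by *osm-7* (2.41), *osm-8* (1.93), *dcar-1* (1.74) and *tir-1* (1.20), with limma adjusted p = 0.000296, 0.0278, 0.00196 and 0.00982. Without wild-type replicate 3, 4 of the 10 and 6 of the 11 were higher in *mab-10* mutants, and of the 11, *lin-29* mutants had 8 and *ddx-23* mutants 6 higher.

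The epidermal factors *elt-1*, *elt-3*, *egl-18*, *elt-6* and *lin-26* summed to 120 to 133 FPKM in *lin-29* mutants, 127 to 169 in *mab-10* mutants, 131 to 133 in *ddx-23* mutants and 115 to 125 in the wild-type, and *elt-3* alone passed, by 0.60, 0.68 and 0.96 in the 3 mutants (limma adjusted p = 0.00932, 0.0369 and 0.00126). Of markers of other tissues, the intestinal list summed to 7630 to 8279 FPKM in *lin-29* mutants and 12363 to 13093 FPKM in the wild-type, with 3 of 6 higher and 2 lower, and the sperm list to 334 to 410 FPKM in *lin-29* mutants and 162 to 260 FPKM in the wild-type, with 3 of 6 higher. The intestinal sum was mostly the yolk genes *vit-2* and *vit-6*, at means of 11.9 and 11.8 in *lin-29* mutants and 12.5 and 12.6 in the wild-type on the log2(FPKM + 1) scale. The others had higher means in *lin-29* mutants: *ges-1* (4.60 against 3.69), *elt-2* (3.35 against 2.58), *act-5* (8.77 against 8.65) and *ifb-2* (6.93 against 5.71). Of eggshell markers, 2 of 5 were lower and of body muscle markers 2 of 5 were higher in *lin-29* mutants. No neuron, pharynx, germline or early embryo marker passed there, but only 2 of 6 early embryo markers were tested. No marker of these 8 lists passed in *mab-10* mutants, and in *ddx-23* mutants 1 body muscle and 1 pharynx marker were higher and 1 intestinal marker was lower. Of all tested genes, 16.3% (*lin-29*), 1.04% (*mab-10*) and 7.17% (*ddx-23*) were higher, and 1.46% were lower in *ddx-23* mutants. With shares this low in *mab-10* mutants, lists this short could hold no call by their size alone. Markers of other tissues did pass when wild-type replicate 3 was left out. In that fit 25.4% (*lin-29*) and 13.1% (*mab-10*) of all tested genes were higher, and the share in *ddx-23* mutants is not given here. In *lin-29* mutants 4 of 5 pharynx, 2 of 5 body muscle, 2 of 6 intestinal, 1 of 7 neuron and 1 of 6 sperm markers were then higher, and 2 intestinal, 2 eggshell and 1 of 8 germline markers lower. In *mab-10* mutants, beside the 4 furrow collagens that passed in that fit, 3 pharynx, 3 neuron, 1 body muscle and 1 eggshell marker were higher, and 3 intestinal and 1 germline marker lower. In *ddx-23* mutants 2 pharynx, 4 neuron and 1 body muscle marker were higher, and 2 intestinal and 1 germline marker lower. The part of these lists in the furrow collagen results was not tested. *dpy-8* overlaps *C31H2.14* on the other strand, and whether counting used strand is not given in the sources used here. *C31H2.14* stood at 3.51, 1.78 and 3.35 in *lin-29* mutants and 3.32, 3.64 and 3.0 in the wild-type, and the part of the overlap in the *dpy-8* values was not tested. *dpy-10* overlaps *T14B4.19* on its own strand, which has no value here. The mutated genes were not absent from their own mutants. *lin-29* itself averaged 3.13 in *lin-29* mutants and 2.01 in the wild-type, *mab-10* 2.90 in *mab-10* mutants and 2.31 in the wild-type, and *ddx-23* 6.13 in *ddx-23* mutants and 5.71 in the wild-type, and such levels do not check the labels, since a mutant mRNA may still be made.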

How the data were processed

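RNA was extracted from young adults with the RNeasy kit, and libraries were made with the NeoPrep system and sequenced on an Illumina NextSeq500. The authors mapped reads to the WS258 reference by STAR 2.5.3a, and RSEM 1.3.0 gave gene levels. The deposited values are log2 values of FPKM + 1 for 46761 genes. They were turned back into FPKM where that scale is used. The DESeq2 test used by the authors was not run, since it needs counts. It was replaced by limma 3.58.1 (R 4.3.3, trend and robust options) on genes reaching an FPKM of 1 in 3 or more libraries. One model held the 4 genotypes (8 residual degrees of freedom). Since 1 is added, a log2 difference understates the fold of low genes. Positions are from an annotation of WBcel235 that may be of another release. The listed symbol *ssp-9* has more than 1 identifier and was left out. Named genes are the 6 members, up to 4 per list by size of difference in *lin-29* mutants, and the 5 most alike. *dpy-14*, *dpy-17*, *sqt-3*, *gpdh-1*, *gst-4*, *hmit-1.1*, *nhr-23*, *tsp-15* and *elt-3*, the intestinal markers, and the genes most like each set of members, were named after their values were seen. The members and lists were chosen with earlier results of these data known. The alternatives cover scaling, pseudocount, filter, model, a replicate block, library number and leaving out each library. The limma code was tested on simulated data. Tables and figures were made in Python 3.11.15 (pandas 2.3.3, numpy 2.4.6, matplotlib 3.10.9).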

Additional observations from a re-analysis of the deposited data

Results flagged for a closer look

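The difference between *lin-29* mutants and the wild-type in *dpy-7* was itself different between later and earlier libraries. It was 1.66 among the later libraries (2 *lin-29*, 1 wild-type) and 3.70 among the earlier ones (1 *lin-29*, 2 wild-type). The later difference minus the earlier one was -2.04 ± 0.51 (SE, 95% interval -3.20 to -0.87, limma interaction term, adjusted p = 0.0436), a test chosen after the values had been seen. The same term was -1.71 for *dpy-3*, -1.30 for *dpy-2* and -1.23 for *dpy-10* (limma adjusted p = 0.0701, 0.168 and 0.151), and 0.68 for *dpy-8* and 0.33 for *dpy-9* (limma adjusted p = 0.556 and 0.71). In *mab-10* mutants the terms of *dpy-2*, *dpy-3*, *dpy-7* and *dpy-10* lay between -1.47 and -1.22 and none passed. Each term rests on 1 later wild-type library.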

How the results depend on the processing

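In *lin-29* mutants 6 members were higher than in the wild-type, and in *lin-29* against *ddx-23* mutants 6, under every alternative run but one: among the later libraries alone the first count was 3. The count in *ddx-23* mutants against the wild-type was 0 throughout. In *mab-10* mutants against the wild-type it was 0 but became 4 among the earlier libraries alone, and ranged from 0 to 4 when single libraries were left out. For *lin-29* against *mab-10* mutants it was 2, but 4 under quantile normalization, under the replicate block and among later libraries alone, and 6 with the library number group as a term and among earlier libraries alone; leaving out single libraries gave 2 to 5. For *mab-10* against *ddx-23* mutants it was 3, with 4 among earlier libraries alone, and 1 to 4 when single libraries were left out. Of differences that did not pass, several turned sign: *dpy-2* in *mab-10* mutants against the wild-type was -0.14 among later libraries, and *dpy-9* there -0.0097 among earlier ones. *dpy-8* in *ddx-23* mutants was -0.035 under quantile normalization. *dpy-9* in *mab-10* against *ddx-23* mutants was -0.0064 under quantile normalization, -0.19 among earlier libraries, -0.0012 without *mab-10* replicate 3 and -0.0099 without *ddx-23* replicate 2, and reached 0.27 at most when other libraries were left out. The cause of these changes was not tested. Median-ratio scaling shifted the median of all tested genes against the wild-type by -0.16 (*lin-29*), -0.14 (*mab-10*) and -0.10 (*ddx-23*).

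*dpy-3* and *dpy-7* passed as lower in *ddx-23* mutants under quantile normalization, a pseudocount of 0.1, the replicate block, the library number term and among earlier libraries, and *dpy-7* also under median-ratio scaling. Replicate numbers share no origin in the labels, and 8 of 18 same-numbered pairs of libraries had deviations correlated over 0.1 (r from -0.30 to 0.46), so they were not taken as pairs. The replicate block gave counts of 6, 0, 0, 4, 6 and 4 in the 6 comparisons. With 3 libraries a genotype and no read depth, differences near the wild-type levels of *dpy-8* and *dpy-9* were limited by an unknown number of reads. The same limit holds for *dpy-3* (0.17 to 0.61 FPKM) and *dpy-7* (0.07 to 0.28 FPKM) in *ddx-23* mutants.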
